A study of Rattus norvegicus with 71 samples.

Results

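Mesenteric artery, the vessel bed that feeds the intestine, was compared between rats of 24 and 15 months. The comparison used 12 of the 71 Affymetrix arrays of the series: 6 arrays of 24 months labelled as the Fischer344 x Brown Norway hybrid (FBN) and 6 arrays of 15 months labelled as Brown Norway (BN), an inbred rat strain. The pair was not matched by its strain labels. It was matched by the signals of 5 genes that separate the strains (Trio, Echdc2, Msrb3, Itga1 and Prps2), which put the 24-month arrays labelled FBN on the level of the arrays labelled BN at 6 and 15 months. Below, "24-month arrays" means the 24-month mesenteric arrays labelled FBN and "15-month arrays" the 15-month mesenteric arrays labelled BN, unless another label is given. The series covers aorta (labelled thoracic artery, 35 arrays) and mesenteric artery (36 arrays) of both strains at 6, 15 and 24 months, with 6 arrays in each group except the 15-month BN aorta (5). The labels name no transgene or drug, and their only treatment text cites a surgical collateral artery model in the rat mesentery, with no word on the vessels it applied to. The labels do not say whether each array came from a separate rat, so that p-values measure the spread between arrays, which may in part be technical. The whole vessel was profiled, and in such bulk RNA fewer cells of a type and less RNA per cell cannot be told apart.

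A mesenteric artery has an inner endothelium, a media of smooth muscle cells between sheets of elastic fibres, and an outer adventitia of fibroblasts and collagen, surrounded by fat. With age large elastic arteries such as the aorta are known to stiffen as elastic fibres wear and the matrix is remodelled. Vessel wall cells also hold a circadian clock, a set of transcription factors that switch each other on and off over the day, and part of that set is used as a readout of clock phase.

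Because the 5 strain genes chose the pair, their signals are a description only. Signals are the deposited linear values of the arrays. For Trio, a guanine nucleotide exchange factor, the lowest, median and highest signal were 149, 210 and 308 in the 15-month arrays and 212, 255 and 271 in the 24-month arrays. The 24-month arrays labelled BN had 2832, 3282 and 4019 for Trio, and the 15-month arrays labelled FBN 2632, 3525 and 3945. Both groups of the pair thus lay far below the other marker level, with no array between. For Msrb3, a methionine sulfoxide reductase, the values were 317, 448 and 664 at 15 months and 413, 473 and 561 at 24 months, against 2467, 4463 and 6083 in the 24-month arrays labelled BN. Echdc2, an enoyl-CoA hydratase family member, read 80.2, 104 and 157 at 15 months and 38.2, 99.8 and 155 at 24 months, against 813, 942 and 1117 in the 24-month arrays labelled BN. The integrin subunit gene Itga1 stood at 1741, 2398 and 3809 and at 1608, 1882 and 2597, against 4976, 7954 and 10826. Prps2, an enzyme of nucleotide synthesis, stood at 891, 1007 and 1150 and at 806, 1070 and 1302, against 2357, 4085 and 5076. These values are from the 1 probe set per gene that separates the 6-month strains most. In it the groups of the pair overlapped each other and did not overlap the arrays of the other marker level. The other probe sets of Trio and Msrb3 did not separate the levels, and in another of Prps2 the 24-month arrays (125 to 268) overlapped the 6-month FBN arrays (211 to 696).

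**Figure D1:**
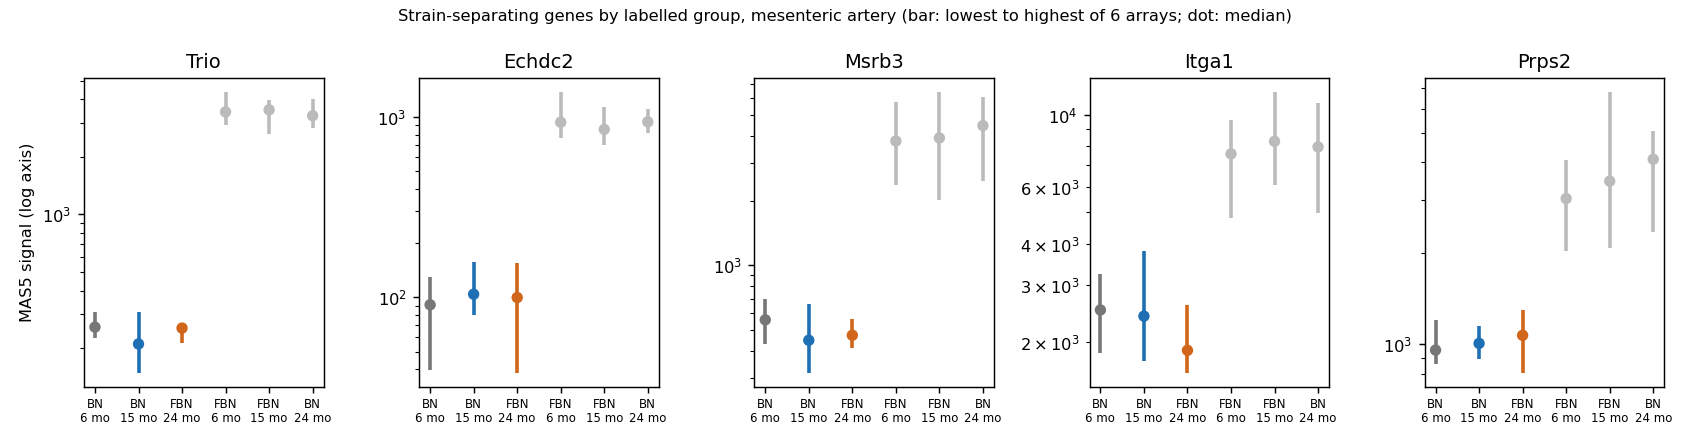
Signal (log axis) of the 5 strain-separating genes in the 6 mesenteric groups, named by their labels, with bars from the lowest to the highest of 6 arrays and dots at the median. The 24-month arrays labelled FBN (median Trio signal 255) sit with the BN groups of 6 and 15 months, and the 24-month arrays labelled BN (median 3282) sit with the FBN groups.

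A wider score was taken over 199 probe sets that differed between the labels at 6 months by at least 1 log2 unit, a set chosen in 12 other arrays. The score, a mean log2 deviation, ran from -0.46 to -0.23 in the 15-month arrays and from -0.71 to -0.36 in the 24-month arrays. It ran from -0.96 to -0.52 in BN arrays and from 0.27 to 1.21 in FBN arrays of 6 months. The 24-month arrays labelled BN spanned -0.33 to 0.41, so their lowest array overlapped the 15-month arrays on this score though not on the 5 genes. Array quality was compared over 6 measures by two-sided exact permutation tests (smallest possible p 0.00216). Array medians (311.6 at 15 and 309.4 at 24 months), tissue mass (15.2 ± 2.9 and 14.9 ± 5.3 mg, SD, n = 6 each) and the log2 ratio of 3′ to 5′ Gapdh signal (1.00 and 0.89) gave unadjusted exact p of 0.513, 0.887 and 0.422. The same ratio of Actb was 2.23 at 15 and 1.73 at 24 months (exact p = 0.0476, adjusted 0.16), the poly-A spike-in signal 9.84 ± 0.58 and 8.82 ± 1.06 log2 units (exact p = 0.0693, adjusted 0.16), and the hybridisation spike-in signal 13.07 and 12.68 (exact p = 0.0801, adjusted 0.16). The part of tissue mass, poly-A signal and the Gapdh and Actb ratios in the results below was assessed only by covariate fits (closing part). That of the array medians and the hybridisation spike-in signal was not tested. The poly-A signal also differed between the 6-month groups that chose the score's probe sets (means of 8.79 in BN and 10.55 in FBN arrays). Its part in the score was not tested.

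The comparison bears on the study's question of how gene expression in vessels differs with age. Of 16717 probe sets tested, 591 (3.54%) were higher and 542 (3.24%) lower at 24 than at 15 months, 1133 in all (6.78%), by limma's moderated test at a Benjamini-Hochberg adjusted p under 0.05. Genes said to rise or fall below passed this test. Counts within gene lists below are to be read beside these shares, and no list was tested as a set. Those called and carrying a single gene symbol stood for 454 genes that rose and 363 that fell, and 253 called probe sets had no single symbol. Most changes were moderate. The median size over called probe sets was 0.56 log2 units, and 57 rises and 60 falls exceeded 1 unit. The median over all tested probe sets was 0.02. In 467 probe sets (2.79% of those tested) every 24-month array lay above every 15-month array, and in 286 (1.71%) below. Single arrays moved the counts. Without array 5 of the 24-month group 358 rose and 300 fell, without array 3 of that group 376 and 304, without array 5 of the 15-month group 390 and 333, and without array 1 of the 15-month group 351 fell.

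**Figure D2:**
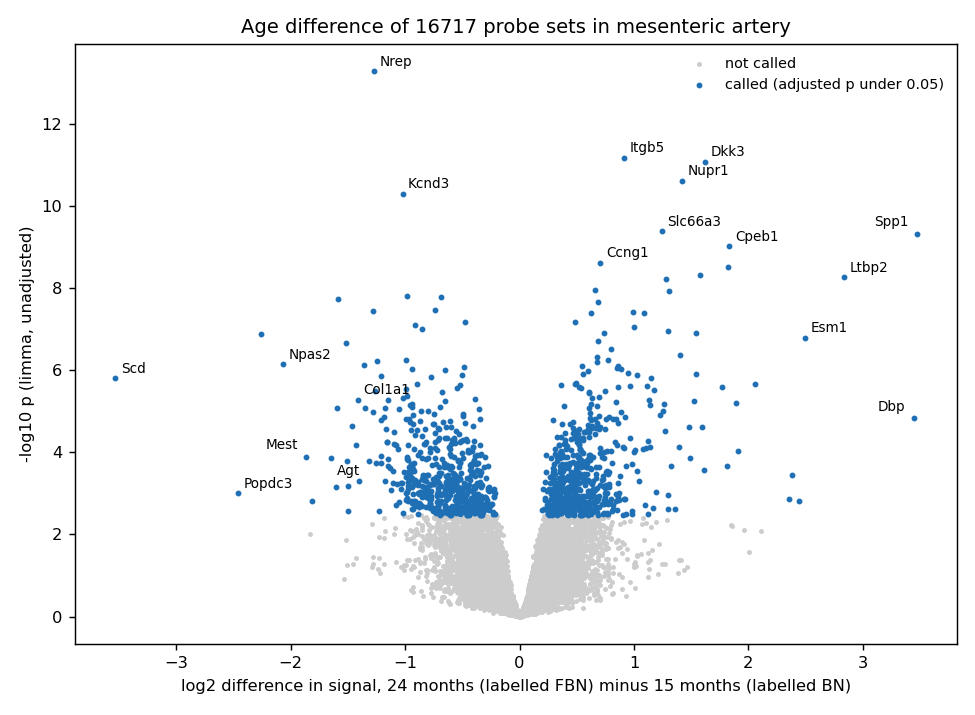
Log2 difference in signal (24 months labelled FBN minus 15 months labelled BN, horizontal) against -log10 of limma's unadjusted p (vertical) for 16717 probe sets, called ones in blue. Spp1 (3.48) and Dbp (3.45) lie farthest to the right, Scd (-3.53) farthest to the left, and Nrep (-1.27) has the smallest p.

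Circadian clock genes moved in both directions. Of 17 clock genes tested, 8 rose, 3 fell and 6 did not pass, and the median difference was 0.53 log2 units. The genes that rose are those whose products act late in the clock's loop or are driven by it: the D-box activators Dbp and Tef, the repressors Per2, Per3 and Cry2, the E-box repressors Bhlhe40 and Bhlhe41, and the nuclear receptor Nr1d2. Those that fell were Bmal1 and Npas2, whose products pair up to activate E-box genes, and Nfil3, a repressor at D-boxes. The labels used here give no time of day of tissue collection.

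Dbp had the largest difference of the clock genes. Its signal was 158, 317 and 695 (lowest, median and highest) at 15 months and 1268, 3738 and 6847 at 24 months. Every 24-month array lay above every 15-month array, and the difference was 3.45 ± 0.68 log2 units (SE, n = 6 each, limma adjusted p = 0.00194), a 10.9-fold rise. Tef, of the same family, went from 965, 1161 and 1558 to 2093, 2966 and 3418 without overlap (1.25 ± 0.24, adjusted p = 0.00148 by limma).

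Among the repressors Per2 read 1132, 2149 and 3508 at 15 months and 4048, 5638 and 8134 at 24 months, a rise of 1.48 ± 0.30 without overlap. Per3 rose by 1.82 ± 0.44, from 402, 679 and 1345 to 1020, 2745 and 3825. Its groups overlapped through 24-month array 3, the lowest of its group at 1020. Bhlhe41 rose by 1.89 ± 0.35 (564, 628 and 820 to 1160, 2525 and 4079) and Bhlhe40 by 1.19 ± 0.33 (292, 534 and 694 to 796, 1142 and 1704), both without overlap. The call of Bhlhe40 was lost in 8 of 26 alternatives. Cry2, a partner of the Per proteins, rose by 0.50 ± 0.12, with overlap through a 15-month array at 3368. The haem-sensing repressor gene Nr1d2 rose in both of its probe sets, by 1.49 ± 0.35 and 1.29 ± 0.36, and its first probe set went from 821, 1202 and 1773 to 2760, 3418 and 3940. For its relative Nr1d1 the values were 219, 749 and 2272 at 15 months and 1845, 2844 and 4024 at 24 months. The groups overlapped and Nr1d1 did not pass (1.86 ± 0.64, adjusted p = 0.0696 by limma), and it passed in 5 of 27 alternatives.

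The activators went the other way. Bmal1 was at 949, 1014 and 1124 at 15 months and at 226, 384 and 702 at 24 months, without overlap (-1.43 ± 0.31, limma adjusted p = 0.00472). Npas2 was at 1180, 1590 and 2263 and then at 127, 481 and 729, also without overlap (-2.07 ± 0.34). Nfil3 fell by 1.50 ± 0.40, from 1568, 2404 and 3842 to 417, 730 and 2216, and its groups overlapped through 24-month array 3. That array had the lowest Dbp, Per2, Per3, Bhlhe41, Nr1d2 and Tef signal and the highest Bmal1, Npas2 and Nfil3 signal of its group. Without it, 10 of the 11 called clock genes kept their call, all but Bhlhe40. The array titles carry a running number, after which the arrays of a group are called 1 to 6 here, and the labels do not say what its order stands for. Clock signals went with it within groups. Arrays 5 and 6 had the highest signals for Dbp, Tef and 1 probe set of Nr1d2 in 6 of 6 mesenteric groups and for Per3 and Bhlhe41 in 5 of 6, and the lowest for Bmal1 in 5 of 6. For Per2, Cry2, Bhlhe40, Npas2 and Nfil3 this held in 1 to 3 groups. With the place in this order as a covariate, added after these values were seen, all 11 clock calls remained. Place ran from 1 to 6 in every group, so the fit could change the spread but not the difference between groups. It cannot show whether what the order stands for differed between the groups. Hlf (0.53), Clock (-0.26), Cry1 (-0.64), Per1 (0.40) and Rora (0.22) did not pass.

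**Figure D3:**
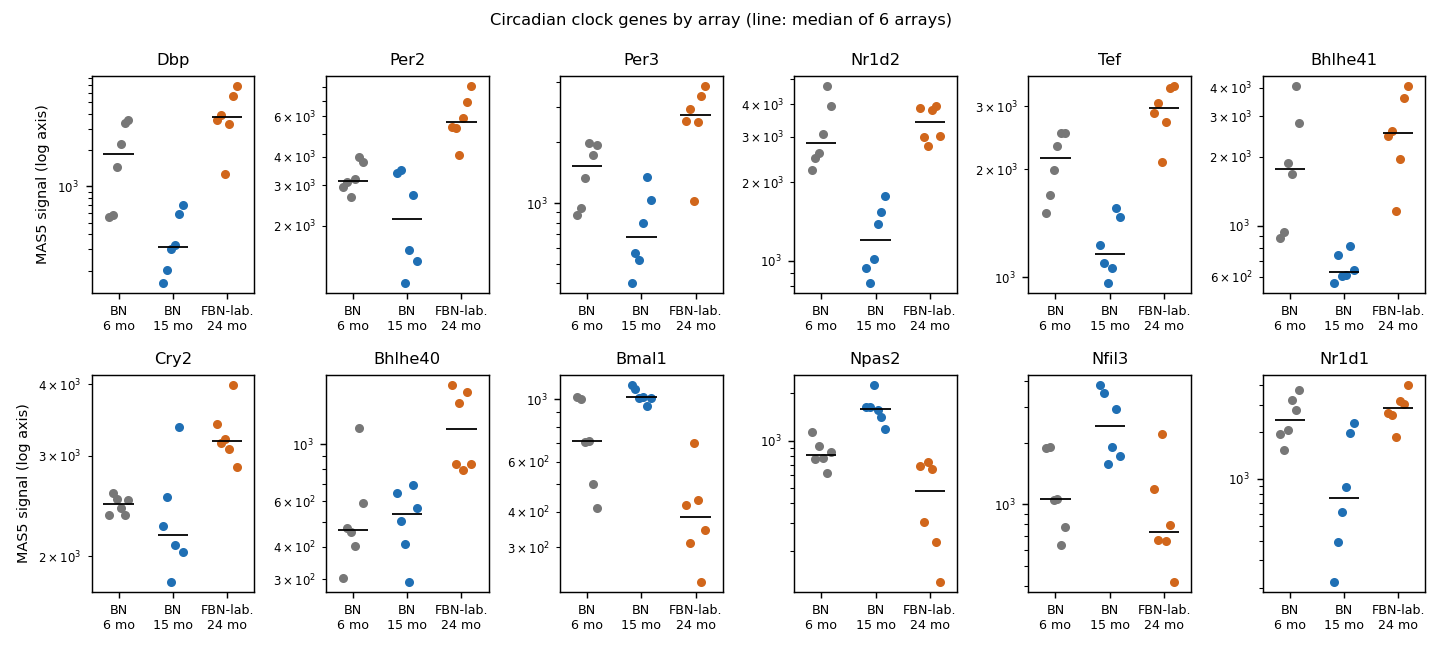
Signal (log axis) of 12 clock genes in each array of BN at 6 months, BN at 15 months and 24 months labelled FBN, with the median of 6 arrays as a line. At 24 months Dbp, Per2, Nr1d2 and Tef lie above and Bmal1 and Npas2 below every 15-month array, while the 6-month arrays spread widely (Dbp from 555 to 3565).

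Promoters of the clock genes were read for the 3 elements through which the loop is known to act, since members on both sides of the loop moved. RefSeq promoter windows (build GRCr8, from 250 bases before to 50 after the start of the gene) were matched for 15 of the 17 clock genes, among them all 11 called ones. The E-box CACGTG, the D-box TTANGTAA and the ROR element ANTAGGTCA were searched on both strands, and no match overlapped another. Of the 11 called genes 5 held a match: an E-box in Bhlhe41, Tef and Bhlhe40, a D-box in Per2 and a ROR element in Bmal1. Over all 33469 promoter windows an E-box was found in 6.42%, a D-box in 2.24% and a ROR element in 0.657%. The match began 48 bases before the start site in Bhlhe41, 198 in Tef, 220 in Bhlhe40, 192 in Per2 and 18 in Bmal1. The 250 bases before the start are shown for the 4 genes that cover the 3 elements and both directions, 5′ to 3′ on the gene's strand, with the matched element in capitals. Bhlhe41 lies at chr4:180569356-180569605 (minus strand), Tef at chr7:115206577-115206826 (plus), Per2 at chr9:99496994-99497243 (minus) and Bmal1 at chr1:176766078-176766327 (plus). A match is a description of these letters and not evidence of binding.
Bhlhe41: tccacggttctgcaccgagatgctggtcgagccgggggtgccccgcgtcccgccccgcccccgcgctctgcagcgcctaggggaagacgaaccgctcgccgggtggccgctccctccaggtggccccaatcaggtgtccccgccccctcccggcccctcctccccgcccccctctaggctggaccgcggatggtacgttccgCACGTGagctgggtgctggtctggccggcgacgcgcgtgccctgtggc
Tef: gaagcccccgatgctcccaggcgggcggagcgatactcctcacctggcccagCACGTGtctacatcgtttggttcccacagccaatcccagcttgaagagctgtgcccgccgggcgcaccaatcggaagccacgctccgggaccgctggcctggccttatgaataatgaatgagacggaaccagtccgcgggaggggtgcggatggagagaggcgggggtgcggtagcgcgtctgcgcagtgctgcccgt
Per2: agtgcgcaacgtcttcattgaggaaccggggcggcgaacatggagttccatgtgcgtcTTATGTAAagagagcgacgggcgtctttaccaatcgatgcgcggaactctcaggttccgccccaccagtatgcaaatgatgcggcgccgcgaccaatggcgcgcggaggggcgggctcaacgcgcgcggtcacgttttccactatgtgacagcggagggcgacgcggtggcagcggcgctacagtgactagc
Bmal1: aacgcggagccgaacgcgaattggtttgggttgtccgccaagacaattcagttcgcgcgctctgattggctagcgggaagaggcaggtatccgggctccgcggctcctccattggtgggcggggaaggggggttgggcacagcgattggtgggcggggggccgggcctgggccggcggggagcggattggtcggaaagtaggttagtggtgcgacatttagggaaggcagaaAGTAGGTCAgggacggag

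Extracellular matrix genes changed in both directions. Of 18 elastic fibre and crosslinking genes 5 rose and 0 fell (median 0.13), and of 18 proteoglycan and matricellular genes 4 rose and 0 fell (median 0.25). Of 20 collagen genes 1 rose and 3 fell (median -0.08). Most members of each list did not pass, and the lists were not tested against each other.

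Spp1, which encodes osteopontin, a secreted phosphoprotein found in remodelled and calcified vessels, had the largest rise of the genes with a single symbol. It read 104, 217 and 360 at 15 months and 1115, 2224 and 4497 at 24 months, 11.1-fold higher (3.48 ± 0.40, adjusted p = 1.1e-06 by limma). The lowest 24-month array stood above the highest 15-month array by a wide margin. Ltbp2, a microfibril protein of the latent TGF-beta binding family, went from 224, 349 and 611 to 1064, 2478 and 6309, 7.15-fold higher (2.84 ± 0.37). Its groups did not overlap either. The other elastic fibre genes that rose were the lysyl oxidase family member Loxl1 (0.63 ± 0.12), the lysyl hydroxylase gene Plod2 (0.93 ± 0.18), Fbln5 (0.61 ± 0.16) and Ltbp1 (0.54 ± 0.15). Elastin itself, Eln, did not pass (0.13), nor did Fbn1 (-0.21) or Lox (-0.38). The calls of Ltbp1 and Fbln5 were lost without 24-month array 5, which left 3 of the 5.

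Fibronectin, Fn1, was at 10052, 17556 and 19025 at 15 months and at 23663, 27409 and 35100 at 24 months, without overlap (0.82 ± 0.16). Comp, a cartilage matrix protein also made by vessel cells, rose by 1.11 ± 0.20, with overlap through a 24-month array at 445. Fmod, a collagen-binding proteoglycan, rose by 0.67 ± 0.16. The matricellular gene Ccn5, which was in no list, went from 329, 601 and 844 to 1057, 2204 and 3564 without overlap (1.82 ± 0.23).

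Among collagens Col5a3 fell most clearly, from 6545, 7865 and 9248 to 2361, 3446 and 4346 without overlap (-1.28 ± 0.18). Col6a3 (-0.39 ± 0.09) and Col12a1 (-0.50 ± 0.15) fell and the basement membrane collagen gene Col18a1 rose (0.62 ± 0.18), all with overlap. Without 24-month array 3 or array 5, and without 15-month array 3 or array 4, 2 of these 4 calls remained. The main fibrillar collagen gene Col1a1 depended on the probe set. One probe set read 10120, 15140 and 23023 at 15 months and 4863, 5267 and 9989 at 24 months, without overlap (-1.41 ± 0.26, limma adjusted p = 0.000974). The other, with the higher signal, did not pass (-0.36, adjusted p = 0.335 by limma). Col1a2 and Col3a1 did not pass in the probe sets the list used (-0.22 and -0.29). Col6a6, outside the list, fell from 579, 863 and 1119 to 265, 305 and 373 (-1.46 ± 0.30).

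Matrix proteases and their inhibitors changed in both directions, with 3 of 16 higher and 2 lower (median 0.02). The protease inhibitor Serpine2 rose without overlap from 8826, 12212 and 14896 to 17326, 19252 and 21689 (0.70 ± 0.14). Timp2, an inhibitor of metalloproteinases, rose by 0.35 ± 0.10 and Mmp11 by 0.61 ± 0.17. The aggrecan-cleaving protease gene Adamts4 fell by 1.15 ± 0.28 and the membrane-bound Mmp14 by 0.57 ± 0.17, a call lost in 11 of 27 alternatives.

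**Figure D4:**
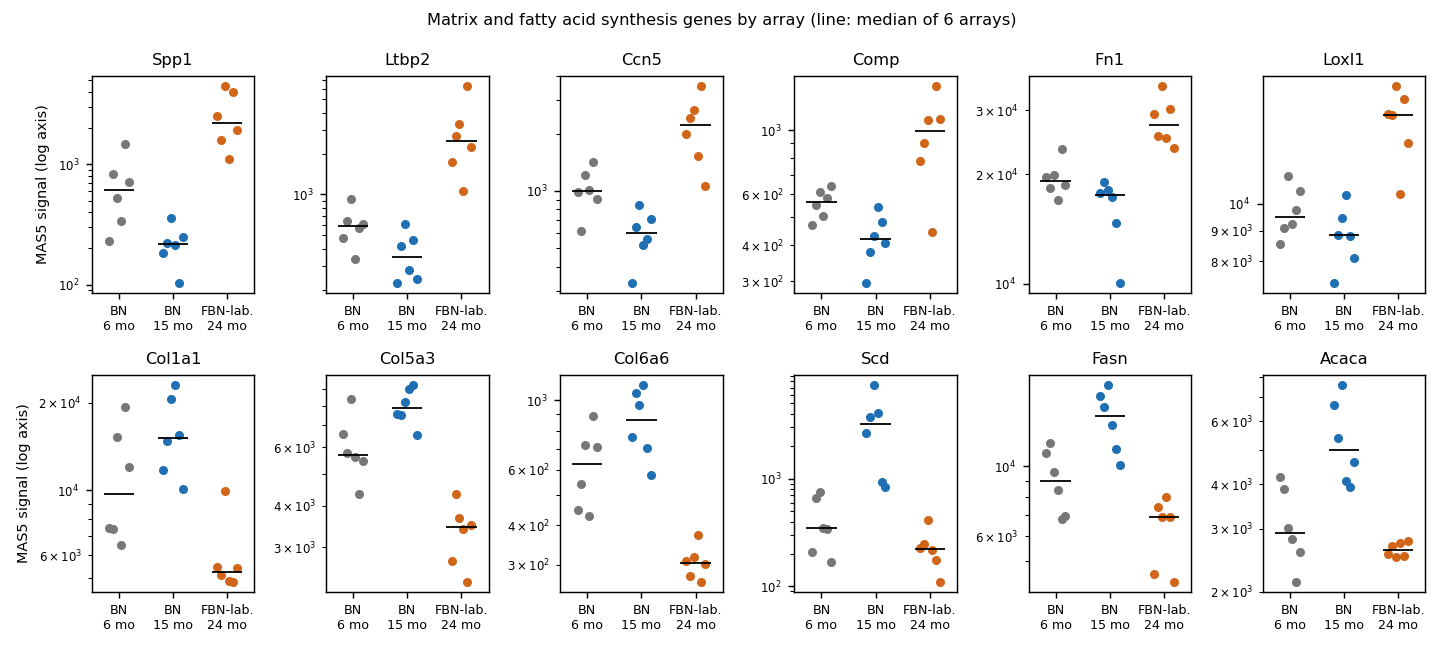
Signal (log axis) of 9 matrix genes and 3 fatty acid synthesis genes in each array of BN at 6 months, BN at 15 months and 24 months labelled FBN, with the median of 6 arrays as a line. Spp1, Ltbp2, Ccn5, Fn1 and Loxl1 lie above, and Col1a1 (1 of 2 probe sets), Col5a3, Col6a6, Scd, Fasn and Acaca below, every 15-month array at 24 months, and Comp overlaps in 1 array.

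Of 19 fatty acid synthesis genes tested 5 fell, 0 rose and 14 did not pass, with a median of -0.31. Scd, the stearoyl-CoA desaturase, had the largest fall of all genes with a single symbol. Its signal was 844, 3186 and 7443 at 15 months and 110, 223 and 411 at 24 months, 11.6-fold lower (-3.53 ± 0.61, limma adjusted p = 0.00042). No array of one group reached the other. The fatty acid synthase gene Fasn went from 10101, 14453 and 18135 to 4301, 6902 and 8016 (-1.17 ± 0.24), and Acaca, which makes the malonyl-CoA that Fasn uses, from 3915, 4987 and 7595 to 2500, 2616 and 2765 (-0.99 ± 0.16). Neither overlapped. The elongase gene Elovl6 fell by 0.64 ± 0.15 and the desaturase gene Fads1 by 0.31 ± 0.09, the latter with a call that was lost in 13 of 26 alternatives.

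In neighbouring pathways, 1 of 15 cholesterol synthesis genes fell, Dhcr7 (-0.93 ± 0.18), and 1 of 16 fatty acid oxidation genes rose, Cpt1a (0.56 ± 0.13), the carnitine transferase that lets fatty acids into mitochondria. A single call in lists of this size is near the 3.24% lower and 3.54% higher of all tested probe sets. Fat cells also make the enzymes of fatty acid synthesis. Of 13 white adipocyte markers 0 passed in either direction, their median was -0.60, and their summed signal was 101446 to 159619 at 15 months and 67589 to 131463 at 24 months. The sums overlapped. Adipoq (-0.62), Plin1 (-0.65) and Fabp4 (-0.14) did not pass. The part of fat cell content in the lipid genes was not tested. Of 8 brown adipocyte genes 0 passed, and Ucp1, Dio2 and Cox8b were below the signal filter on all 12 arrays. Glycolysis genes counted 1 higher (Eno1, 0.29 ± 0.09, lost in 16 of 27 alternatives) and 3 lower of 16: the insulin-responsive glucose transporter gene Slc2a4 (-0.58 ± 0.13), Aldoc (-0.84 ± 0.21) and Ldha (-0.28 ± 0.07).

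The 10 genes with the smallest p included 4 of the large rises, Spp1, Dkk3, Cpeb1 and Ccn5. Nrep, an intracellular protein of regenerating nerve and wound cells, had the smallest: 6560, 7694 and 8353 at 15 months and 2672, 3219 and 3439 at 24 months, with a narrow range in each group and no overlap (-1.27 ± 0.10, adjusted p = 8.6e-10 by limma). The potassium channel gene Kcnd3, which carries a fast transient current, fell in both probe sets, in the first from 1643, 1975 and 2232 to 766, 988 and 1116 (-1.02 ± 0.11).

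Beside Spp1 and Ccn5, given above, 6 of these 10 genes rose. Itgb5, an integrin subunit that binds vitronectin, went from 3234, 3612 and 3990 to 5985, 6639 and 8186 (0.92 ± 0.09) and rose in both probe sets. Dkk3, a secreted protein of the Dickkopf family, went from 2550, 2899 and 3065 to 6458, 8186 and 15973 in 1 of 2 probe sets (1.62 ± 0.16). The stress-induced chromatin protein gene Nupr1 went from 5293, 7482 and 8395 to 12988, 20113 and 25274 (1.42 ± 0.15). None of these 3 overlapped. Slc66a3, a membrane protein gene, went from 2347, 2639 and 2944 to 4961, 6134 and 7602 (1.24 ± 0.14). Cpeb1, an mRNA-binding regulator of poly-A tail length, went from 297, 375 and 635 to 1186, 1425 and 2002 (1.83 ± 0.22). Ccng1, the p53 target cyclin G1, went from 2986, 3569 and 3822 to 5319, 5502 and 6683 (0.71 ± 0.09), again without overlap.

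Further large rises came from genes of different kinds. Esm1, which encodes the endothelial proteoglycan endocan, went from 258, 294 and 626 to 858, 2469 and 3214, without overlap (2.50 ± 0.38). The secreted sushi-repeat protein gene Srpx2 rose by 2.06 ± 0.36 and the sarcomere protein gene Tcap by 1.91 ± 0.43. Vsnl1, a neuronal calcium sensor gene, rose by 1.58 ± 0.20, the secreted factor gene Fibin by 1.54 ± 0.26 in both probe sets, and the chemerin receptor gene Cmklr1 by 1.54 ± 0.23 in 2 of 3 probe sets. These 5 did not overlap between the groups.

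Agt, the precursor of angiotensin, was among the large falls: 3501, 4675 and 6539 at 15 months and 669, 1526 and 2439 at 24 months, without overlap (-1.64 ± 0.38, limma adjusted p = 0.00744). Of 7 renin-angiotensin genes it was the only fall, and the receptor gene Agtr1b the only rise (0.91 ± 0.29, lost in 20 of 26 alternatives). The maternally expressed non-coding RNA Meg3 went from 892, 1053 and 1215 to 243, 432 and 485 (-1.52 ± 0.23), and Mest, also imprinted, from 408, 882 and 1309 to 112, 246 and 310 (-1.87 ± 0.43). Because these 2 are imprinted, others were looked up after their values were seen: Ndn fell (-1.25 ± 0.20), and H19 (-0.09) and Igf2 (-0.28) did not pass. Nrk, a kinase gene, went from 400, 532 and 713 to 90, 193 and 286 without overlap (-1.59 ± 0.22). The secreted WAP-domain gene Wfdc21 fell by 1.60 ± 0.30 with overlap.

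The other large falls were less firm. Cma1, the mast cell chymase, fell by 1.82 ± 0.53 with overlap, and its call was lost in 9 of 27 alternatives. Pcdh17, a protocadherin, fell in 1 of 3 probe sets (-1.61 ± 0.43), with 7 of 27 lost. Popdc3 (-2.46 ± 0.68) and the peptide ligand gene Apln (-1.40 ± 0.36) entered the test only through the signal of aorta arrays, and both overlapped. Popdc3 was at 9.5 to 79.5 in 24-month arrays, where the size of a log2 difference depends on the background.

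Calcification and bone matrix genes counted 4 higher and 0 lower of 12 (median 0.24): Spp1 and Comp, already given, with the alkaline phosphatase gene Alpl (1.08 ± 0.24) and Tnfrsf11b (0.98 ± 0.31), the decoy receptor osteoprotegerin, whose call was lost in 18 of 27 alternatives. In the TGF-beta and BMP list 3 of 23 rose and 0 fell (median 0.11). The ligand gene Tgfb1 went from 419, 641 and 900 to 1018, 1270 and 1534 without overlap (0.99 ± 0.14), the receptor gene Tgfbr1 rose by 0.56 ± 0.14 and Skil, a feedback inhibitor, by 0.51 ± 0.12. In the growth factor list the ligand gene Pdgfa (0.66 ± 0.18) and the receptor gene Pdgfrb (0.54 ± 0.14) were the 2 of 19 that rose.

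The senescence and p53 list counted 3 of 13 higher (Ccng1, Gadd45b at 0.73 ± 0.19 and Mdm2 at 0.30 ± 0.09, lost in 12 of 27 alternatives) and 3 lower (Igfbp5 at -0.68 ± 0.12, Igfbp3 at -0.94 ± 0.24 and Sesn1 at -0.49 ± 0.11). Known p53 targets stood on both sides: Ccng1 and Mdm2 rose, and Igfbp3 and Sesn1 fell. Antioxidant genes counted 3 higher and 0 lower of 20: the plasma glutathione peroxidase Gpx3 (0.56 ± 0.12), Gclc (0.53 ± 0.15), which makes the rate-limiting step of glutathione synthesis, and Srxn1 (0.60 ± 0.18). Among inflammatory adhesion and chemokine genes the adhesion molecule gene Icam1 (0.49 ± 0.13) and the chemokine gene Ccl19 (0.85 ± 0.26) rose, 2 of 16, with calls lost in 5 of 27 and 12 of 26 alternatives. A single member rose in each of 6 further lists, a share near the 3.54% of all tested probe sets: Dkk3 (of 20 Notch and Wnt genes), Serpine2 (of 15 coagulation genes), the stress factor gene Ddit3 (0.78 ± 0.20, of 19 endoplasmic reticulum stress genes), the autophagy receptor gene Sqstm1 (0.37 ± 0.08, of 16), the immediate early gene Egr2 (1.36 ± 0.41, of 19) and the prostacyclin synthase gene Ptgis (0.80 ± 0.23, of 16 vasoactive genes). Egr2 did not pass without array 1, 3 or 5 of the 24-month group or without any 15-month array but array 5 (values of 1.16 to 1.41), nor Ptgis without array 5 of the 24-month group or array 2, 3 or 5 of the 15-month group (0.62 to 0.81). Of 11 glucocorticoid response, 13 heat shock, 10 cell cycle, 6 NADPH oxidase and 10 adrenergic and neuropeptide receptor genes 0 passed. Of 20 interferon-stimulated, 14 MHC, 10 complement, 39 respiratory chain, 23 proteasome, 23 RNA splicing and 18 ion channel genes, 0 passed in either direction. In the ribosomal protein list 4 of 22 rose, by 0.24 to 0.37, and 0 fell, and 3 of these calls (Rpl12, Rpl35 and Rpl24) were lost in 11 or 12 alternatives.

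Cell type markers showed few calls. Of 18 smooth muscle contractile genes 0 passed (median 0.03), and their summed signal was 443983 to 645035 at 15 months and 404759 to 626806 at 24 months. The labelled tissue thus carried its defining muscle markers in both groups. Of 16 endothelial genes the transcription factor gene Erg rose (0.74 ± 0.15) and Plvap, which forms the diaphragms of endothelial pores, fell (-0.61 ± 0.16), and the median was -0.45 with 14 not passing. Of 14 adventitial fibroblast and 18 macrophage genes 0 passed (medians -0.15 and -0.16), and the macrophage sums were 33579 to 85329 and 26683 to 56988. Pericyte genes counted 2 higher of 8, Pdgfrb and Rgs5 (0.51 ± 0.15, lost in 12 of 26 alternatives).

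Nerve markers moved both ways. Uchl1, a neuronal ubiquitin hydrolase gene, rose from 531, 772 and 1207 to 1521, 1874 and 2361 without overlap (1.28 ± 0.17), and the myelin genes Mbp (-0.91 ± 0.27) and Pmp22 (-0.35 ± 0.10) fell with overlap, with calls lost in 13 of 27 and 11 of 26 alternatives. Of 6 lymphatic endothelial genes Reln fell (-0.83 ± 0.22), and of 7 skeletal and cardiac muscle genes Ckm fell (-0.93 ± 0.26). The 8 mesothelial genes had 0 calls and a median of -0.56. Of 3 mast cell genes tested Cma1 fell, and of the neutrophil list 0 genes reached the signal filter.

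The 6-month BN arrays belong to neither group of the pair. For Spp1, Dbp and Scd the 6-month level lay between the others, nearer to 24 months for Dbp and Scd. Against 6 months the log2 difference of Spp1 was -1.47 at 15 and 2.01 at 24 months, and that of Dbp -2.20 and 1.25. Scd was 2.79 higher at 15 months and at -0.75 at 24 months. Ltbp2 differed by -0.71 at 15 months and by 2.13 at 24 months. The values were 0.46 and -0.81 for Nrep, 0.55 and -1.10 for Agt, and 0.56 and -0.85 for the probe set of Col1a1 that fell. Of these, both differences passed for Spp1 and Nrep, that of 15 months for Scd and that of 24 months for Ltbp2. None passed for Dbp, Agt or Col1a1. For the clock gene Bhlhe41 the values at 15 and 24 months were -1.42 and 0.47, and for 1 probe set of Nr1d2 -1.35 and 0.14. Both genes passed at 15 months only. Per3 (-0.97 and 0.85) and Npas2 (0.93 and -1.14) passed at neither age. These contrasts share the 15-month or the 24-month arrays with the pair and are given side by side only.

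The other mesenteric pair with matching markers, 24-month arrays labelled BN against 15-month arrays labelled FBN, consists of 12 other arrays. It had 28 probe sets higher (0.167%) and 42 lower (0.251%), 0.419% in all. Of the 1133 probe sets called in the first pair 976 (86.1%) had the same sign there, against 61.9% of all tested. The changes were smaller: the median was 0.15 over the probe sets that rose in the first pair, where it was 0.51, and -0.22 over those that fell, where it was -0.63. Since the first values were selected by their size, they are larger in part by selection. Called in both were 19 probe sets, 27.1% of the 70 and 1.68% of the 1133, all with the same sign. Nupr1 (0.68), Nrep (-0.52), Itgb5 (0.40), Slc66a3 (0.67), Ccng1 (0.39) and Col5a3 (-0.80) were among them. Spp1 (1.66), Dbp (1.59), Ltbp2 (1.05) and Agt (-1.29) had the same sign without passing, and Scd was at 0.11.

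**Figure D5:**
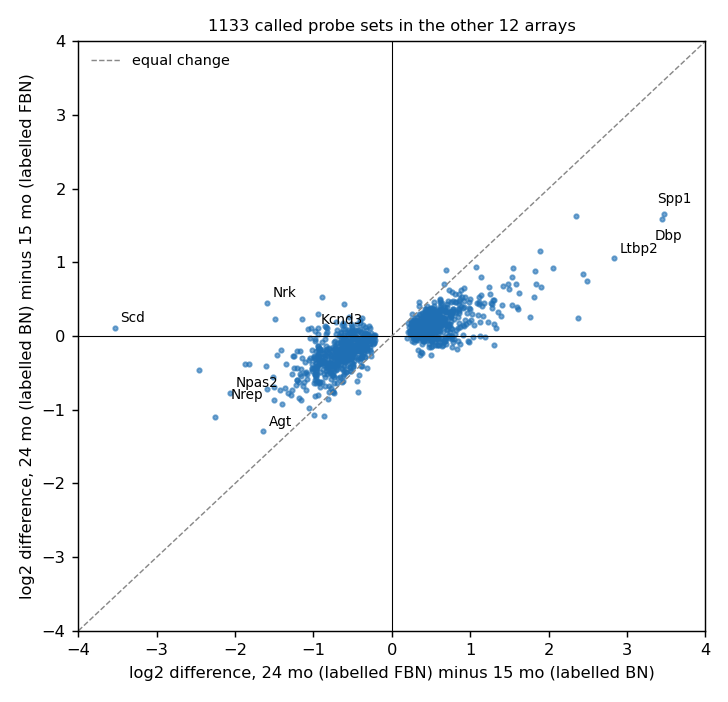
Log2 difference of the 1133 called probe sets in the pair described (horizontal) and in the 12 other mesenteric arrays (vertical), with equal change as a dashed line. Of the points 976 share their sign, the vertical median is 0.15 for rises and -0.22 for falls, and Scd (0.11) and Nrk (0.45) lie above 0 on the left.

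The difference between the changes of the pairs was tested directly. It passed for 11 probe sets (0.0658%), 1 higher (0.00598%) and 10 lower (0.0598%), 6 of them called in the first pair, and 1440 had an unadjusted p under 0.05. Nrk differed most. It had 400, 532 and 713 at 15 and 90, 193 and 286 at 24 months in the first pair, and 233, 304 and 474 and then 263, 471 and 537 in the other, a difference of changes of -2.04 ± 0.31 (limma adjusted p = 0.00108). Its groups parted in the first pair and overlapped in the other. For Igfbp5, an insulin-like growth factor binding protein, 1 probe set differed by -1.43 ± 0.26: it fell by 0.89 in the first pair and was at 0.54, not passing, in the other. For Kcnd3 the difference of changes was -0.84 ± 0.15 (-1.02 in the first pair and -0.18, not passing, in the other) and for Nrep, which fell in both, -0.76. Raph1, an actin regulator, rose in the other pair (1.05 ± 0.11) and was at 0.12 in the first. Of the kinase genes Rps6ka5 rose (0.57) and Stk25 fell (-0.42) in the other pair, and neither passed in the first (-0.30 and 0.16). For Scd, with 0.11 in the other pair against -3.53, the difference of changes did not pass (-3.65 ± 0.86, limma adjusted p = 0.115).

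Against the 15-month BN arrays, the 24-month arrays that carry the same BN label gave 1369 probe sets higher (8.19%) and 1364 lower (8.16%), 16.3% in all, in a comparison that shares the 15-month arrays. Averaged over both labels, which makes no use of the strain of the 24-month arrays, 673 probe sets were higher (4.03%) and 703 lower (4.21%), 8.23% in all, and 823 of the 1133 were called in both. This average holds the arrays of the pair too. Strain differences at 6 months, in 12 other arrays, were called for 1804 probe sets (10.8%), 846 higher in FBN (5.06%) and 958 lower (5.73%), and for 214 (18.9%) of the 1133. In 186 of these 214 the change from 15 to 24 months ran opposite to the sign of FBN minus BN, and in 28 with it. Scd was among them, 3.66 higher in FBN than in BN at 6 months, and Nupr1 at -1.57. So were Spp1 (-1.79), Ltbp2 (-1.43), Cpeb1 (-1.37), Ccn5 (-1.07) and 1 probe set of Nr1d2 (-1.67). With all such probe sets left out, 10 of 11 clock, 4 of 4 collagen and 3 of 3 TGF-beta calls remained. Of the other lists 3 of 5 elastic fibre, 1 of 4 proteoglycan, 2 of 5 fatty acid synthesis and 1 of 4 calcification calls remained. The 6-month groups also differed in poly-A spike-in signal, as given above, and its part in these counts was not tested. In BN aorta, 24 minus 15 months, 31 probe sets were higher (0.185%) and 11 lower (0.0658%), 2 of them called in the mesenteric pair. There 63.4% of the 1133 had the same sign, against 53.3% of all tested, with Spp1 at 0.85, Dbp at 0.15 and Scd at -0.75, none passing.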

How the data were processed

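The series holds 71 Affymetrix rat arrays. Per the labels' protocols, RNA came from a Qiagen column kit, and less than 1 ug was turned into biotin-labelled cRNA. The deposited values are MAS5 intensity on a linear scale, made with GCOS and MAS5 per the submitters' processing notes (versions not given in the sources used here). The mean of each array without its lowest and highest 2% was 1000.3 to 1000.4, so the deposited signals had been scaled to 1 trimmed mean.

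Intensities were log2-transformed without an offset. Of 31099 probe sets 57 controls were left out. The 16717 tested had a mean log2 signal of at least 8.19 (a signal of 292.4, the median over probe sets) in aorta or in mesenteric arrays. Gene symbols were taken from the platform annotation: 1 for 20826 probe sets, several for 436, none for 9780, and 20764 gene identifiers matched a RefSeq table. The 36 mesenteric arrays were fitted as 6 group means with limma 3.58.1 (R 4.3.3, statmod 1.5.0; eBayes with trend and robust estimates), two-sided, with Benjamini-Hochberg adjustment over all tested probe sets and calls at 0.05. BN aorta came from a like fit of the 35 aorta arrays. The number of arrays limits the precision. Errors are SE of the fit unless given as SD.

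The pair, the gene lists and the tests were chosen with earlier results of these data known. Named were the 15 largest rises and 15 largest falls among called genes with 1 symbol, the 10 smallest p, and, per gene list, the 4 members of smallest p at most. The clock genes beyond these, list members given as not passing, and the imprinted genes were chosen after their values were seen. A list gene was taken by its probe set with the highest mesenteric signal. On simulated data with 16717 probe sets, 43.3% of changes of 0.5 log2 units, 86.6% of 1 and 100% of 2 were recovered in this pair, and 6.13% of calls were false. This was 1 run with independent normal noise in each probe set. It held no factor shared by all probe sets of an array, so the real share of false calls may differ. Alternatives were quantile normalization, an offset of 81.1, no filter, a stricter filter (1127.9), plain eBayes, limma's array weights, 1 fit of all 71 arrays, a fit of only the arrays compared, covariates (tissue mass, poly-A spike-in, Gapdh ratio), leaving out each array, leaving out strain-separating probe sets, and exact permutation tests. The Actb ratio and the place in the running title number as covariates and the average over both labels were added after seeing the data.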

Additional observations from a re-analysis of the deposited data

Results flagged for a closer look

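Within a group of 6 arrays, single arrays stood apart from the other 5 by a gap larger than Dixon's critical value in 10 of the 210 gene and group combinations checked, near the 5% that chance gives. In the 15-month group, array 5 was high for Esm1 (626.4, the others 257.7 to 312.1) and for Rgs5 (1517, the others 935.9 to 1075). Array 6 was low for Fbln5 (2019, the others 2537 to 2872) and for Mmp14 (6307, the others 9887 to 10390), and array 1 was low for Col6a3 (19590, the others 22340 to 23450). In the 24-month group, array 3 was low for Per3 (1020, the others 2529 to 3825) and high for Col1a1 (9989, the others 4863 to 5452). Array 6 was low for Col12a1 (2010, the others 2985 to 3697) and high for Pmp22 (30110, the others 20970 to 23980), and array 4 was low for Vsnl1 (389.6, the others 684.9 to 936.4).

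The change from 15 to 24 months differed between the mesenteric pairs with matching markers, by a test of the difference itself, for 7 genes with a symbol. The difference, first pair minus other pair on the log2 scale, was -2.04 for Nrk, -0.934 for Raph1, -0.839 for Kcnd3, -1.43 for Igfbp5, -0.757 for Nrep, 0.581 for Stk25 and -0.87 for Rps6ka5.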

How the results depend on the processing

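In each sentence counts are probe sets higher and lower. Not all counts of the settings run are given. In the pair described they were 1658 and 1353 with array weights, 192 and 173 in 1 fit of all 71 arrays, and 945 and 771 with only the arrays compared. As covariate the poly-A spike-in gave 1004 and 1112, the Gapdh ratio 845 and 722, the Actb ratio 760 and 560, and tissue mass 596 and 547. Leaving out 1 array gave 358 to 635 higher and 300 to 642 lower, and the lowest counts came without 24-month array 5. Of the 1133 calls 347 remained in the fit of all 71 arrays, 901 with the poly-A covariate, 827 with the Actb ratio as covariate, 823 in the average over both labels, and 642 to 990 without 1 array. In the other pair the counts were 11 and 17 without a filter, 14 and 22 with the stricter filter, 120 and 154 with array weights, 6 and 8 in 1 fit of all 71 arrays, 3 and 4 with only the arrays compared, and 84 and 110 with the poly-A covariate, and 45 were higher with the Gapdh covariate. For the difference of the changes, 0 were higher without a filter, 4 were lower with the stricter filter, and the counts were 54 and 66 with array weights, 0 and 3 in 1 fit of all 71 arrays, 7 and 17 with the poly-A and 5 and 18 with the Gapdh covariate. For the pair labelled BN they were 841 and 875 with the stricter filter, 753 and 737 in 1 fit of all 71 arrays, 906 and 840 with the Gapdh covariate, and 2173 higher with array weights. In these other comparisons the counts not given moved by a smaller ratio. The cause of the shifts was not tested.

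Of 101 called genes checked, 43 kept their call in every alternative that gave a value, and none of the 101 changed sign. Of 4 uncalled genes Rps6ka5 (0.13) and Stk25 (-0.13) changed sign in the average over both labels, not passing. The 36 genes named for size or p had an unadjusted exact permutation p of 0.0195 or less. They were picked on the same arrays, so that small values follow in part from the selection. In 1 fit of all 71 arrays 10 of 11 clock calls, 1 of 5 elastic fibre calls and 2 of 5 fatty acid synthesis calls remained. So did 1 of 4 collagen, 2 of 4 proteoglycan, 1 of 4 calcification and 2 of 3 TGF-beta calls. Genes near background, such as Popdc3, have no firm size. With the place in the running title number as covariate 621 were higher and 585 lower, and 1120 of the 1133 calls remained. This covariate was balanced over the groups, so it left the differences as they were and changed only their spread. No paired analysis was run, because the labels number the arrays in 1 running series and give no replicate numbers shared by groups. The place in that series was fitted as a linear covariate and not as a block.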
